A study of Homo sapiens with 18 samples.

Results

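The RNA-seq data were examined for 10 genes of DNA replication licensing, namely MCM2, MCM3, MCM4, MCM5, MCM6, MCM7, MCM8, MCM10, CDC6 and CDT1. They were taken by gene name from the 39496 genes of the deposited tables, and all 10 were among the 20144 genes that passed the filter on low counts. The 18 libraries came from UM-UC-3 and T24 cells, which are established human bladder cancer cell lines, here all labelled WT. Each cell line was given a negative control siRNA (siNC) or either of 2 ACAT1 siRNAs, siACAT1-1 and siACAT1-2. This gave 6 groups with 3 libraries each, labelled as biological replicates 1 to 3. ACAT1 encodes a mitochondrial acetyl-CoA acetyltransferase. The transfection time is not given in the sources used here. Each cell line is 1 line, and the RNA is that of whole cultures, so that fewer cells in S phase and less RNA per cell cannot be told apart.

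Replication licensing loads the MCM2-7 helicase onto DNA in G1 phase. The origin recognition complex and CDC6 form a ring of ATPases at an origin, CDT1 brings MCM2-7, and paired rings are closed around the double strand. In S phase, kinases turn these rings into the active CMG helicase with CDC45 and the GINS complex, and MCM10 joins it at this step. The genes are transcribed around the G1 to S transition, largely under E2F and RB family proteins, and their levels are widely used as markers of proliferating cells. MCM8 does not belong to the ring and acts with MCM9 in homologous recombination.

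Promoter letters are shown because most of the 10 genes had similar profiles over the libraries. Of the 10 genes, 8 have a promoter in the RefSeq table of GRCh38.p14, while MCM4 and MCM5 have none there. The 250 bases before each start were searched on both strands for the E2F-type words TTTCCCGC, TTTGGCGC, TTTCGCGC and TTTGCCGC, which occur in 2.79% of the 35116 promoters and were found for MCM3, MCM6, MCM7 and CDT1. The word GGCGGGAA, which can overlap TTTCCCGC, occurs in 2.72% and was found for MCM3 and CDT1, and it was added after the first words had been counted. The E-box CACGTG occurs in 6.34% and was found for MCM2, MCM7 and MCM8. CCAAT occurs in 32.0% of promoters and was found for 6 of the 8 genes, and GGGCGG occurs in 42.6% and was also found for 6. MCM6 is shown whole because its profile over the libraries lay nearest to the mean of the 10 genes, and MCM8 because it is outside the ring and holds an E-box but none of the E2F-type words. For the others, 30 bases around a match are shown. All are written 5′ to 3′ on the strand of the gene, and the capitals mark E2F-type words (on either strand, overlapping in MCM6) and CACGTG. A match describes letters and was not tested as a binding site.
MCM6, chr2:135876444-135876693, minus strand: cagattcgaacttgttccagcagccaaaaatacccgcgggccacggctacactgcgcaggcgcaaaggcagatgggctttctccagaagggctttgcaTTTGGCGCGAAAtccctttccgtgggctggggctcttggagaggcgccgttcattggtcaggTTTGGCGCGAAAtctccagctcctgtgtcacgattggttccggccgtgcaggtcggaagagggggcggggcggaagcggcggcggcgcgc
MCM8, chr20:5950402-5950651, plus strand: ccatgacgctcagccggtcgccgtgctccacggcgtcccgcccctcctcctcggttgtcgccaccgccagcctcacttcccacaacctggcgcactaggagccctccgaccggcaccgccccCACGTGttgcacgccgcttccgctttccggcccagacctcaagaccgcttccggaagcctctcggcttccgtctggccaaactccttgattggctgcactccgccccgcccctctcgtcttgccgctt
MCM2, chr3:127598381-127598410, plus strand: ttcccgggctttggtgggtCACGTGaacca
MCM3, chr6:52284898-52284927, minus strand: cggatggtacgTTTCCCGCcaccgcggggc
MCM7, chr7:100101566-100101595, minus strand: cagctcggaccGCGGGAAAcccggcgcctg
MCM7, chr7:100101398-100101427, minus strand: ccggtCACGTGgggggcgacgTTTCGCGCc
CDT1, chr16:88803743-88803772, plus strand: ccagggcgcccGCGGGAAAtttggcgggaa
The windows of MCM2, MCM7 and CDT1 lie inside exons that the deposited table lists for these genes, whereas those of MCM6, MCM8 and MCM3 lie outside. MCM7 has several starts in RefSeq, and the matches were found before the most upstream of them.

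The libraries held 25163490 to 34417230 counted reads (median 28613163), and the 10 genes had 192 to 19677 reads per library, so that counting error was small beside the spread between libraries. ACAT1, the target, fell by 92.0% of the siNC mean at the least and fell by 95.3% at the most in the 4 comparisons, and its 12 knockdown libraries (0.671 to 3.59 RPKM, counted reads scaled to gene length and library total) lay below all siNC libraries (14.6 to 47.4 RPKM). Of 6 epithelial markers, 3 in UM-UC-3 cells (KRT7, KRT8 and KRT18) and 5 in T24 cells (with KRT19 and EPCAM) had a median of at least 1 RPKM, whereas all 7 urothelial markers of UM-UC-3 and 6 of 7 for T24 had medians under 1 RPKM. The 3 fibroblast markers summed to 1.43 to 2.26 RPKM, with COL1A1 over 1 RPKM in both lines. Markers of blood (summed RPKM at most 0.188) and endothelial cells (at most 0.0922) were near 0.

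Before any comparison, the libraries of UM-UC-3 cells with replicate number 3 stood apart. In UM-UC-3 cells all 10 genes had their lowest mean over the siRNA groups in number 3, below the highest number by 0.60 (CDT1) to 2.16 (MCM4) in log2 CPM (counts scaled to the library size). In T24 cells the lowest number was 2 for MCM3, MCM5, MCM6, MCM7 and CDT1 and 3 for the others, with spans of 0.49 (MCM2) to 1.58 (MCM5). The epithelial markers, summed, were also lower in the T24 libraries with number 2 (295 to 424 RPKM, against 738 to 1093 RPKM in the other 6). In UM-UC-3 cells this sum was lower in all 6 siACAT1 libraries (129 to 153 RPKM) than in the 3 siNC libraries (165 to 209.7 RPKM). The part of these markers in the results was not tested. Neither the labels nor the methods state what a number marks. Libraries of 1 cell line with the same number deviated together, so each result is given from a model without and from a model with the number as a block within the cell line.

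**Figure D1:**
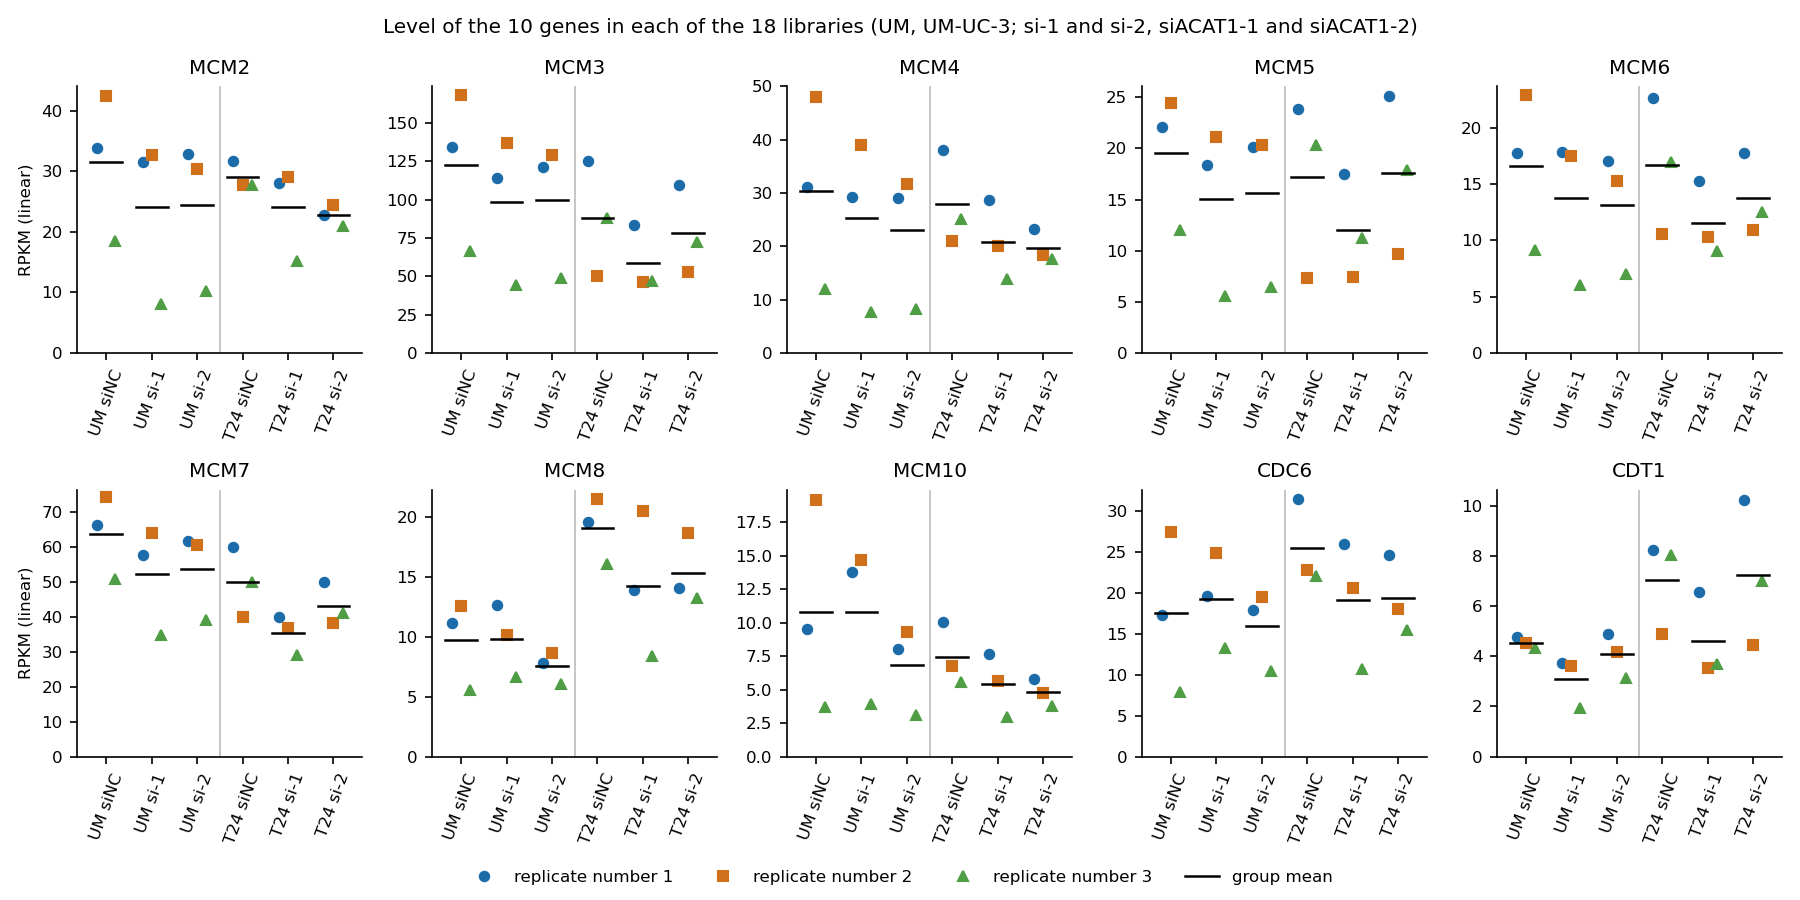
RPKM on linear axes in each of the 18 libraries, 1 panel per gene, with 3 libraries per group marked by replicate number and a bar for the group mean. In UM-UC-3 cells number 3 (triangles) is the lowest library of each group for every one of the 10 genes, and siACAT1 libraries overlap siNC libraries except for CDT1 in UM-UC-3 siACAT1-1 and MCM2 with siACAT1-2 in T24 cells.

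The main comparison asked whether licensing genes differ in level after ACAT1 knockdown. Averaged over both siRNAs and both cell lines, all 10 genes were fitted below siNC, by 0.21 (CDC6) to 0.45 (MCM10) on the log2 scale. Without the block, the standard errors of these differences were 0.16 (MCM7) to 0.35 (MCM4), and 0 of the 10 genes passed the quasi-likelihood test of edgeR (Benjamini-Hochberg over all genes), where 0.114% of all genes were called lower. The count was also 0 at an unadjusted p under 0.05, and 0 with DESeq2 and with limma. In edgeR without the filter on low counts 0 passed, but 9 had an unadjusted p under 0.05, as had 3318 of 39496 genes. With the replicate block, 8 of the 10 genes fell, namely MCM2, MCM3, MCM4, MCM5, MCM6, MCM7, MCM10 and CDT1, beside 6.46% of all genes called lower. MCM8 missed the threshold (adjusted p = 0.0530) and so did CDC6 (adjusted p = 0.290). The median of the 10 genes was -0.33 without and -0.35 with the block, and that of all genes was -0.0013 and -0.0010.

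The data behind these fits are the differences between libraries of the same number. Of 120 such differences (10 genes, 12 each), 104 were below 0. Of all genes tested, 45.1% to 50.9% were lower in a single comparison and number. MCM4 and MCM7 were lower in 12 of 12, as were 1.91% of all genes, and MCM2, MCM3, MCM6 and CDT1 in 11 of 12. The share over all genes was not taken for 11 of 12. The 12 differences of a gene share 6 siNC libraries and are not independent. Read without the numbers, the groups overlapped. All 3 siACAT1-1 libraries lay below all 3 siNC libraries for CDT1 alone in UM-UC-3 cells (6.74% of all genes) and for 0 of 10 in T24 cells (6.9%), while siACAT1-2 gave 0 of 10 in UM-UC-3 cells (5.86%), and for T24 cells MCM2 alone (5.7%). These counts are near the background shares.

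**Figure D2:**
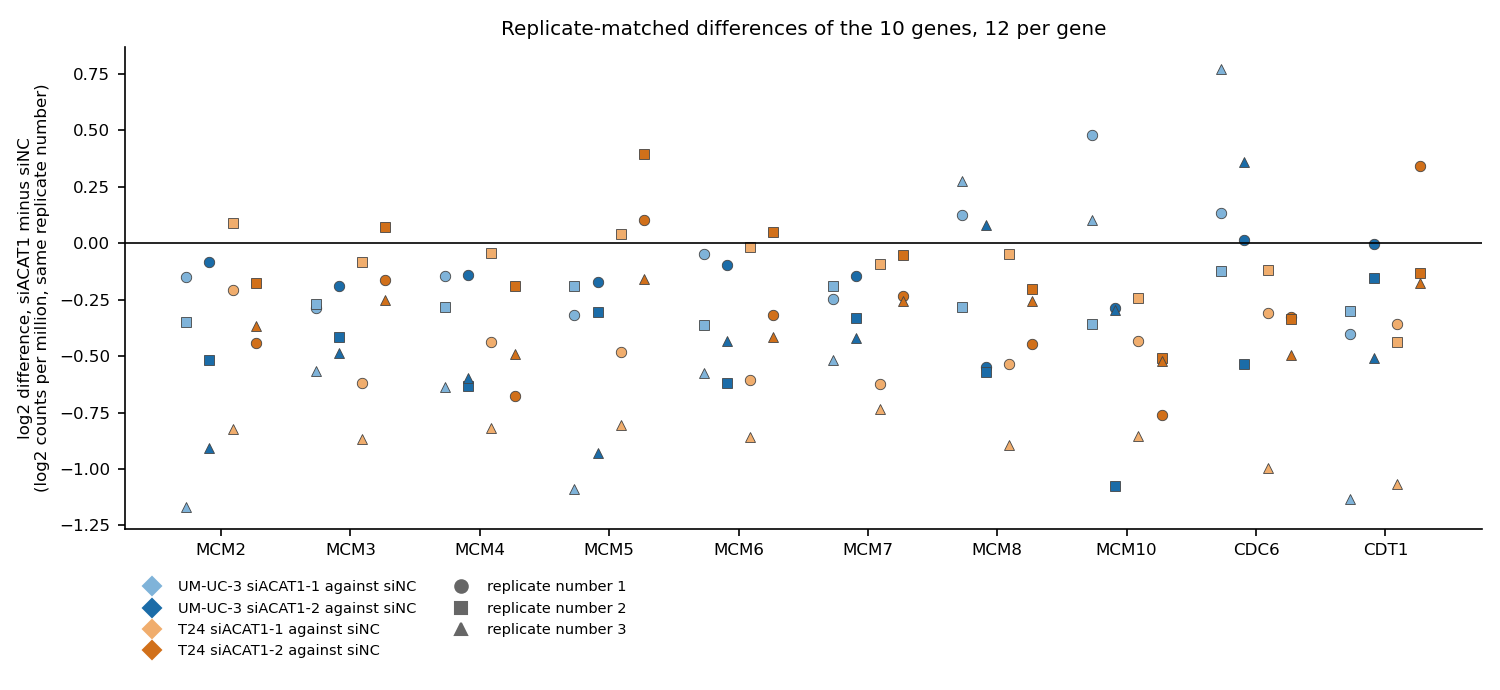
Difference in log2 CPM between each siACAT1 library and the siNC library of the same cell line and replicate number, 12 points per gene, with colour for the comparison and shape for the number. Of the 120 points, 104 lie below 0, where 45.1% to 50.9% of all genes were lower in a single comparison and number. CDC6 in UM-UC-3 cells with number 3 lies highest, at 0.77.

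The ring subunits MCM4, MCM6 and MCM7 form a core with helicase activity of its own. MCM4 carries a tail that the CDC7 kinase phosphorylates, and maps to chromosome 8 (47960185 to 47978160, plus strand, GRCh38). In UM-UC-3 cells its RPKM in libraries 1, 2 and 3 was 31.2, 48.1 and 12.02 with siNC, 29.2, 38.9 and 7.61 with siACAT1-1 and 29.1, 31.8 and 8.18 with siACAT1-2. The T24 libraries gave 38.01, 20.9 and 25.2 with siNC, 28.7, 19.99 and 13.8 with siACAT1-1 and 23.3, 18.4 and 17.6 with siACAT1-2. Within each number the siACAT1 libraries were lower than siNC, whereas the range over numbers within a group reached 5.12-fold, in UM-UC-3 siACAT1-1. The fitted mean change (log2) was -0.41 (SE 0.35, adjusted p = 0.734) without the block and -0.43 (SE 0.082, adjusted p = 0.00220) with it in edgeR. In single comparisons MCM4 fell in T24 cells with both siRNAs under the block (-0.43 and -0.46, adjusted p = 0.0408 and 0.0410 in edgeR).

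MCM6, the subunit that binds CDT1, maps to chromosome 2 (135839626 to 135876426, minus strand, GRCh38). In UM-UC-3 libraries it had an RPKM of 17.8, 22.9 and 9.17 with siNC, 17.8, 17.5 and 6.06 with siACAT1-1 and 17.05, 15.3 and 7.01 with siACAT1-2. For T24 cells the values were 22.6, 10.6 and 16.9 with siNC, 15.2, 10.3 and 9.04 with siACAT1-1 and 17.8, 10.95 and 12.5 with siACAT1-2. The T24 libraries with number 2 stayed between 10.3 and 10.95 RPKM whatever the siRNA, while those with numbers 1 and 3 were lower with both siRNAs than with siNC. Over the 4 comparisons the log2 fold change was -0.37 (SE 0.27, adjusted p = 0.685) without the block and -0.36 (SE 0.084, adjusted p = 0.00713) with it, and the block value passed in edgeR.

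MCM7 maps to chromosome 7 (100092728 to 100101940, minus strand, GRCh38), and an intron of it holds a cluster of microRNAs. It shares 392 bases (8.94%) of its exons with AP4M1 on the opposite strand, and the strand setting of the counting is not given, so that reads of both genes may be mixed. The RPKM of MCM7 in UM-UC-3 cells was 66.3, 74.2 and 50.8 with siNC, 57.8, 64.1 and 34.9 with siACAT1-1 and 61.6, 60.6 and 39.1 with siACAT1-2. T24 cells had 60.1, 39.8 and 50.1 with siNC, 39.9, 36.8 and 29.2 with siACAT1-1 and 50.1, 38.4 and 41.2 with siACAT1-2. MCM7 varied least over the libraries, with a highest to lowest ratio of 2.54 against 3.77 to 6.47 for the other 9 genes. The mean log2 fold change was -0.32 (SE 0.16, adjusted p = 0.504) without the block and -0.32 (SE 0.07, adjusted p = 0.00516) with it in edgeR.

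MCM2 and MCM5 flank the gate through which DNA enters the ring. MCM2 maps to chromosome 3 (127598223 to 127622436, plus strand, GRCh38), and 29 of its exon bases are shared with TPRA1 on the opposite strand. Its RPKM in UM-UC-3 cells was 33.9, 42.4 and 18.6 with siNC, 31.6, 32.7 and 8.12 with siACAT1-1 and 32.9, 30.4 and 10.2 with siACAT1-2. In T24 cells it was 31.7, 27.7 and 27.7 with siNC, 28.1, 29.1 and 15.1 with siACAT1-1 and 22.9, 24.5 and 21.05 with siACAT1-2. The gap to siNC in UM-UC-3 cells was widest in number 3, at -1.17 and -0.91 on the log2 scale, and narrowest in number 1, at -0.15 and -0.082. The fitted mean change (log2) was -0.35 (SE 0.28, adjusted p = 0.718) without the block and -0.43 (SE 0.10, adjusted p = 0.00838) with it in edgeR.

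MCM5 maps to chromosome 22 (35400063 to 35425430, plus strand, GRCh38). In UM-UC-3 libraries it had an RPKM of 22.1, 24.5 and 12.01 with siNC, 18.4, 21.1 and 5.55 with siACAT1-1 and 20.2, 20.4 and 6.49 with siACAT1-2. The T24 libraries gave 23.9, 7.34 and 20.3 with siNC, 17.5, 7.46 and 11.3 with siACAT1-1 and 25.1, 9.65 and 17.9 with siACAT1-2. Each siACAT1 library of UM-UC-3 cells lay below the siNC library of its number, whereas in T24 cells siACAT1-2 lay above it in 2 of 3 numbers. Over the 4 comparisons the log2 fold change was -0.30 (SE 0.34, adjusted p = 0.833) without the block and -0.34 (SE 0.094, adjusted p = 0.0238) with it in edgeR.

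MCM3 was the most abundant of the 10 genes per length, with a median of 85.8 RPKM over the libraries, and maps to chromosome 6 (52264009 to 52284881, minus strand, GRCh38). Its RPKM in UM-UC-3 cells was 135, 168 and 66.4 with siNC, 114, 137 and 44.2 with siACAT1-1 and 121, 129 and 48.8 with siACAT1-2. For T24 cells the values were 125, 50.1 and 88.1 with siNC, 83.5, 46.6 and 46.8 with siACAT1-1 and 109.7, 52.6 and 72.6 with siACAT1-2. The T24 siNC libraries alone spanned 2.501-fold, which is wider than any of the siRNA differences. The mean log2 fold change was -0.35 (SE 0.30, adjusted p = 0.740) without the block and -0.35 (SE 0.073, adjusted p = 0.00409) with it in edgeR.

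The ring subunits did not have equal levels per length. Over the 18 libraries the median RPKM was 85.8 for MCM3, 50.1 for MCM7, 27.9 for MCM2, 24.2 for MCM4, 18.1 for MCM5 and 15.2 for MCM6. The subunits enter the helicase in equal numbers, but an RPKM depends on the exon length listed for a gene, which was 3650 bases for MCM3 and 7338 for MCM5. The 6 group means of each of the 10 genes were also placed in order, and neighbouring groups in that order overlapped in 5 of 5 pairs for each gene.

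CDT1 and CDC6 load the ring. CDT1, which geminin inhibits and which is degraded in S phase, was the least abundant of the 10 genes and maps to chromosome 16 (88803213 to 88809258, plus strand, GRCh38). In UM-UC-3 cells its RPKM was 4.78, 4.52 and 4.33 with siNC, 3.74, 3.60 and 1.93 with siACAT1-1 and 4.90, 4.17 and 3.13 with siACAT1-2. T24 cells had 8.22, 4.87 and 8.04 with siNC, 6.57, 3.54 and 3.70 with siACAT1-1 and 10.2, 4.44 and 6.99 with siACAT1-2. All siACAT1-1 libraries of UM-UC-3 cells were below all siNC libraries, which was not so with siACAT1-2, and in T24 cells the highest library of all was a siACAT1-2 library. The fitted mean change (log2) was -0.32 (SE 0.21, adjusted p = 0.635) without the block and -0.36 (SE 0.10, adjusted p = 0.0208) with it in edgeR.

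CDC6, the ATPase that closes the loading complex on the origin recognition complex, maps to chromosome 17 (40287633 to 40304657, plus strand, GRCh38). In UM-UC-3 libraries it had an RPKM of 17.3, 27.5 and 7.89 with siNC, 19.6, 24.8 and 13.3 with siACAT1-1 and 17.9, 19.5 and 10.5 with siACAT1-2. In T24 cells it was 31.4, 22.7 and 22.1 with siNC, 26.01, 20.6 and 10.7 with siACAT1-1 and 24.6, 18.01 and 15.4 with siACAT1-2. In T24 cells all 6 siACAT1 libraries were below siNC of the same number, whereas in UM-UC-3 cells only number 2 was below with both siRNAs, and in number 3 the siACAT1 libraries were above siNC by 0.77 and 0.36 on the log2 scale. Over the 4 comparisons the log2 fold change was -0.21 (SE 0.25, adjusted p = 0.839) without the block and -0.17 (SE 0.10, adjusted p = 0.290) with it, so CDC6 did not pass in either edgeR model.

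MCM10, which joins the helicase when origins fire, maps to chromosome 10 (13161554 to 13211104, plus strand, GRCh38). Its RPKM in UM-UC-3 cells was 9.52, 19.1 and 3.68 with siNC, 13.8, 14.7 and 3.90 with siACAT1-1 and 8.00, 9.31 and 3.09 with siACAT1-2. The T24 libraries gave 10.1, 6.75 and 5.53 with siNC, 7.63, 5.62 and 2.96 with siACAT1-1 and 5.82, 4.75 and 3.78 with siACAT1-2. This gene had the widest range of the 10 genes, 6.47-fold over the libraries, and in UM-UC-3 cells siACAT1-1 lay above siNC in 2 of 3 numbers while siACAT1-2 lay below in all 3. The mean log2 fold change was -0.45 (SE 0.34, adjusted p = 0.691) without the block and -0.40 (SE 0.095, adjusted p = 0.00820) with it in edgeR.

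MCM8, of the recombination helicase, maps to chromosome 20 (5950652 to 5998977, plus strand, GRCh38). In UM-UC-3 libraries it had an RPKM of 11.2, 12.5 and 5.56 with siNC, 12.6, 10.1 and 6.63 with siACAT1-1 and 7.84, 8.67 and 6.06 with siACAT1-2. For T24 cells the values were 19.6, 21.5 and 16.1 with siNC, 13.9, 20.5 and 8.40 with siACAT1-1 and 14.1, 18.6 and 13.2 with siACAT1-2. Group means were higher in T24 cells than in UM-UC-3 cells with each siRNA, and within T24 cells both siRNAs lay below siNC in each number. The fitted mean change (log2) was -0.29 (SE 0.19, adjusted p = 0.646) without the block and -0.27 (SE 0.091, adjusted p = 0.0530) with it in edgeR.

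In the single comparisons the block gave calls for T24 and none for UM-UC-3. Without the block 0 of 10 genes were called in each of the 4 comparisons, and 0 at an unadjusted p under 0.05, where the share of all genes called lower was 0.00993% and 0.0397% in UM-UC-3 cells (siACAT1-1, siACAT1-2), and for T24 cells 0.0546% and 0.164%. The count was also 0 in each with DESeq2 and limma. In edgeR without the filter on low counts, an unadjusted p under 0.05 was found for 1 and 1 of the 10 genes in UM-UC-3 cells (1764 and 1254 of 39496 genes). In T24 cells it was found for 7 and 2 (3008 and 2344 genes). With the block in edgeR, 7 genes fell with siACAT1-1 in T24 cells (7.31% of all genes were lower), namely MCM3, MCM4, MCM6, MCM7, MCM8, MCM10 and CDT1, and 2 with siACAT1-2 (3.93%), namely MCM4 and MCM10. In UM-UC-3 cells 0 were called with siACAT1-1 (1.1% of all genes) and 0 with siACAT1-2 (0.72%). There 7 and 8 of the 10 genes had an unadjusted p under 0.05, as had 3731 and 2706 of all 20144 genes. Without the UM-UC-3 libraries of number 3, these counts under the block were 0 and 3 (1874 and 2194 of 20485 genes). The medians of the 10 genes were then -0.21 and -0.28, against -0.34 and -0.38 with all libraries. DESeq2 with the block called 3 and 1 in UM-UC-3 cells, beside 379 of 14227 and 329 of 33373 genes called lower. With limma and the block the counts were 0 and 0. Without the block the medians of the 10 genes were -0.28 and -0.37 for UM-UC-3, and they were -0.48 and -0.29 for T24, where each pair shares its siNC libraries.

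**Figure D3:**
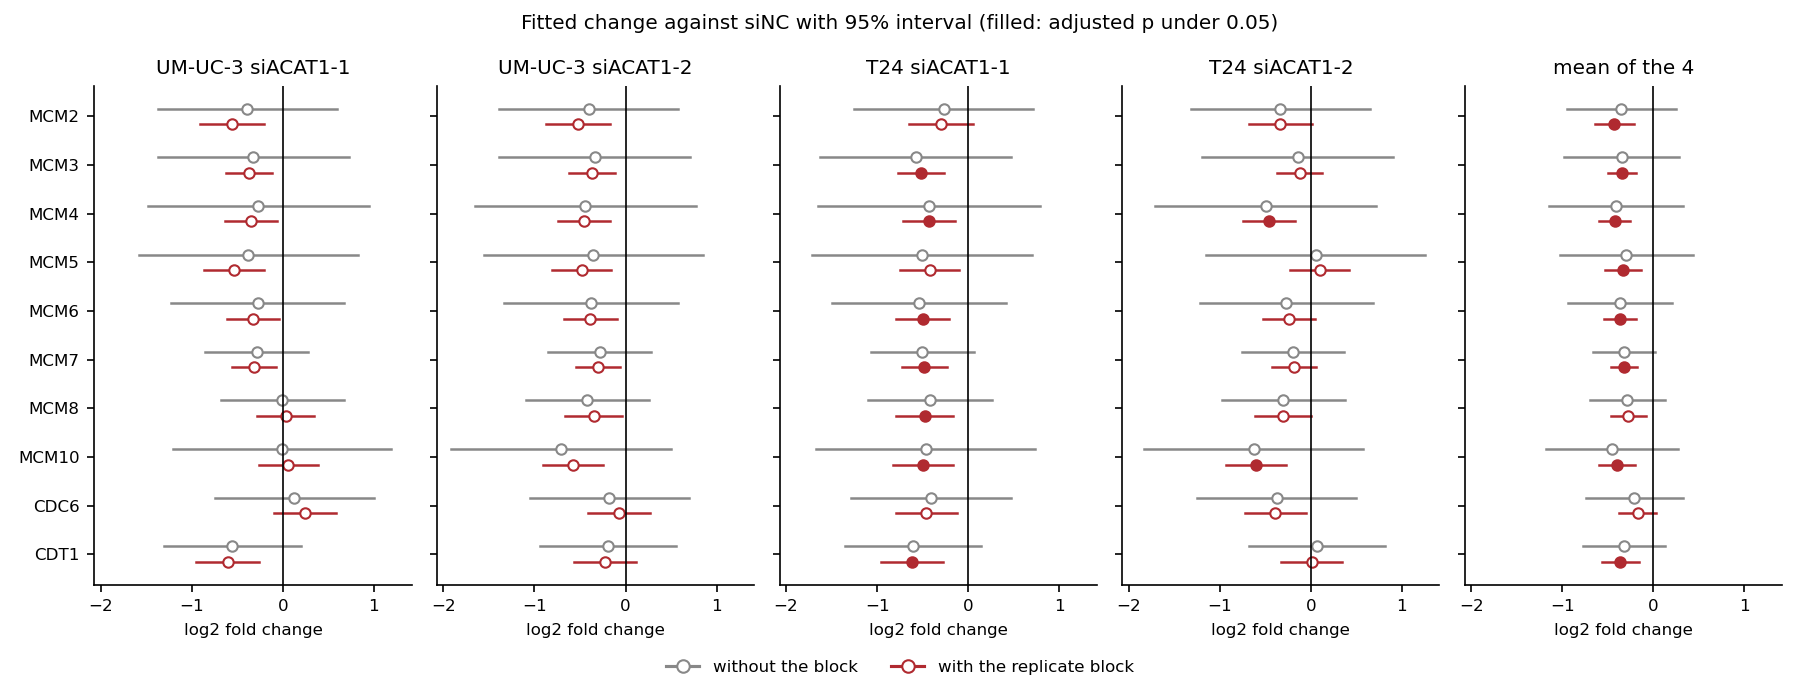
Fitted log2 fold change against siNC (horizontal axis) with its 95% interval for each of the 10 genes in the 4 comparisons and in their mean, in grey without and in red with the replicate block, with filled points at an adjusted p under 0.05. No grey point is filled, while 8 red points are filled in the mean, 7 in T24 siACAT1-1 and 2 in T24 siACAT1-2, and grey and red estimates lie close together.

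Whether the effect differed between the cell lines was tested directly, as UM-UC-3 minus T24. Without the block 0 of 10 genes passed in edgeR and 0 had an unadjusted p under 0.05. With the block 0 passed (0.104% of all genes were called in either direction), and DESeq2 and limma with the block called 0. In edgeR with the block 1 had an unadjusted p under 0.05, as had 1905 of all 20144 genes. That gene was CDC6, with a difference of 0.51 (95% interval 0.10 to 0.92, adjusted p = 0.400). For MCM7 the interval was -0.27 to 0.32 and for MCM4 -0.31 to 0.39 on the log2 scale, so that differences of about the size of the knockdown effect itself lie inside them. The larger number of calls in T24 cells is therefore not shown to be a difference between the lines.

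The siRNAs were compared directly as siACAT1-2 minus siACAT1-1 over both lines. Without the block 0 of 10 genes passed in edgeR, with 0 at an unadjusted p under 0.05, and 0 passed with DESeq2 and limma. In edgeR without the filter on low counts, 2 had an unadjusted p under 0.05, as had 4176 of 39496 genes. With the block, 2 passed, beside 20.6% of all genes in either direction, so that the share is that of the background. CDT1 was higher with siACAT1-2 by 0.50 (SE 0.12, adjusted p = 0.00426) and MCM10 lower, at -0.37 (SE 0.11, adjusted p = 0.0235). For MCM2 the interval of the difference was -0.24 to 0.25, and for MCM4 it was -0.27 to 0.14. ACAT1 itself was lower with siACAT1-2 than with siACAT1-1, at -0.62 (SE 0.12, adjusted p = 0.000816).

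At baseline, 1 of the 10 genes differed between UM-UC-3 and T24 siNC libraries, where 44.3% of all genes were called in either direction. MCM8 was lower in UM-UC-3 cells (9.76 ± 3.70 RPKM, SD, n = 3) than in T24 cells (19.1 ± 2.73 RPKM), by -0.91 on the log2 scale (SE 0.32, edgeR adjusted p = 0.0295). This call was lost when UM-UC-3 siNC library 3, T24 siNC library 1 or T24 siNC library 2 was left out. CDT1 and CDC6 were fitted lower and MCM3 and MCM10 higher in UM-UC-3 cells without passing (-0.60, -0.49, 0.52 and 0.57). The numbers are nested in the lines, so no block could be used here.

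The replicate number carried more of the spread of these genes than the siRNA did. In UM-UC-3 cells the number took 44.3% (CDT1) to 94.4% (MCM4) of the sum of squares of log2 CPM, with a median of 85.2%, against a median of 9.29% for the siRNA. In T24 cells it took 44.0% (MCM2) to 85.5% (MCM5), with a median of 66.1%, against 23.7% for the siRNA. The number exceeded the siRNA for 10 of 10 genes in both lines. Over all genes tested the medians were 38.4% and 25.3% for UM-UC-3, against 44.4% and 25.2% for T24. These shares describe 9 libraries per line and were not tested.

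**Figure D4:**
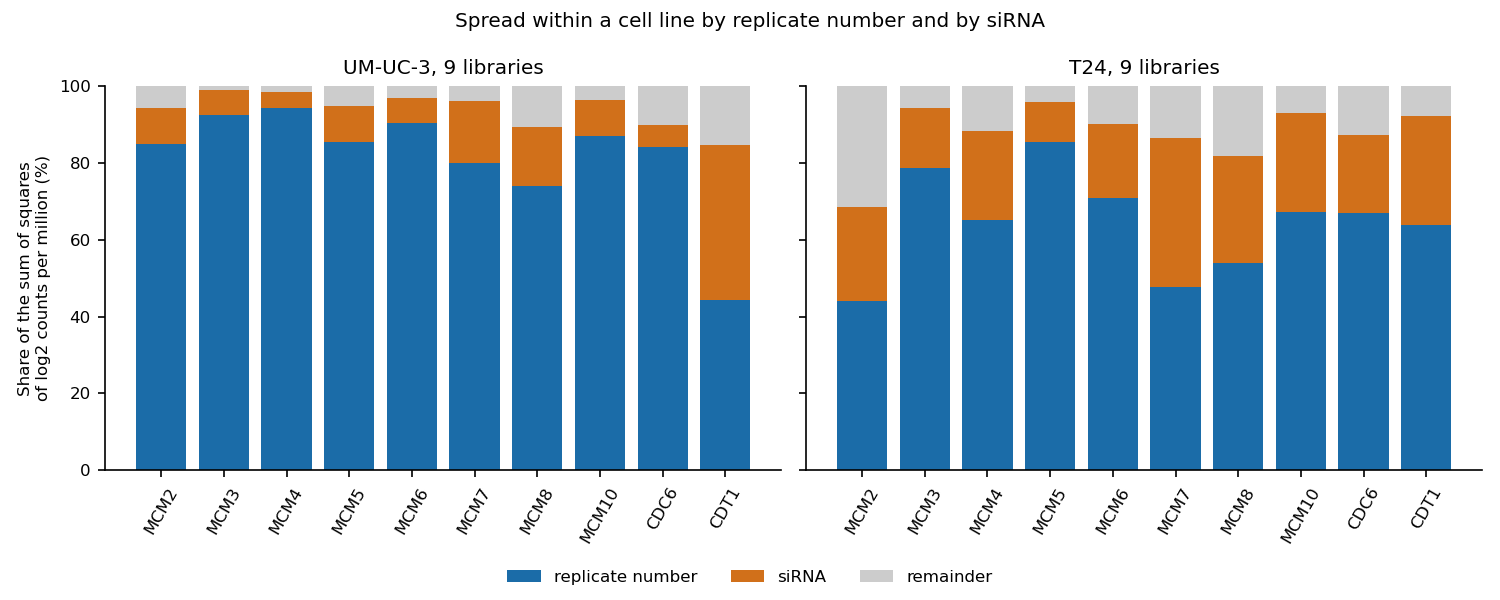
Share of the sum of squares of log2 CPM within a cell line (vertical axis, %) that goes with the replicate number, with the siRNA and with neither, 1 bar per gene and 9 libraries per line. The number takes the largest share in all 20 bars, from 44.0% to 94.4%.

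Removing all UM-UC-3 libraries of number 3, or all T24 libraries of number 2, moved the calls. The T24 libraries of number 2 had the low sum of epithelial markers but did not stand apart for the 10 genes. Their centred mean level in T24 cells was 0.455, -0.255 and -0.200 in numbers 1, 2 and 3 (log2). No fit left out T24 number 1. Without the 3 UM-UC-3 libraries of number 3, the 10 genes were still all fitted below siNC in the mean, with a median of -0.30 under the block, and 4 were called, namely MCM3, MCM4, MCM8 and MCM10, beside 2.96% of all genes called lower. MCM7 then had an adjusted p of 0.0506 and MCM6 of 0.0535, and MCM5 moved from -0.34 to -0.20. Without the 3 T24 libraries of number 2, the median was -0.42 and 9 genes were called, all but CDC6, beside 8.39% of all genes. This number held the smallest T24 differences from siNC, with medians of the 10 genes of -0.064 (siACAT1-1) and -0.15 (siACAT1-2). In numbers 1 and 3 the medians were -0.46 and -0.86 for siACAT1-1, and -0.32 and -0.31 for siACAT1-2. Its removal thus lowers the T24 estimates and is no check on their size. Leaving out 1 library at a time under the block left 4 to 9 genes called in the mean, with the low of 4 without T24 siNC library 3. In these fits 1191 to 3162 of all genes were called in the mean. For the counts of single comparisons that follow, the shares over all genes are not given here. For siACAT1-1 in T24 cells the count of 7 dropped to 0 without T24 siNC library 3, T24 siACAT1-1 library 1 or T24 siACAT1-1 library 3, and to 1 without T24 siNC library 1. For siACAT1-2 in T24 cells the count of 2 dropped to 0 without T24 siNC library 1 or 3 or siACAT1-2 library 1 or 2, and to 1 without UM-UC-3 siNC library 2 or siACAT1-2 library 3.

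Other genes of licensing and of helicase activation were read from lists. In the mean of the 4 comparisons, 0 genes of any list passed in edgeR without the block, so the following counts are those of the block, beside the 6.46% of all genes called lower. Of the 12 tested genes of origin recognition and licensing control (median -0.090), 1 fell and 0 rose. This was ORC3, a subunit of the origin recognition complex (-0.30 without and -0.31 with the block, adjusted p = 0.393 and 0.0193). A count of 1 in 12 is near the share of all genes. Without the block ORC3 was at -0.48 (UM-UC-3) and -0.49 (T24) with siACAT1-1, against -0.17 and -0.061 with siACAT1-2. The others with the largest estimates were ORC1 (-0.29 and -0.38), MCM9 (-0.20 and -0.19), C17orf53, the HROB partner of MCM8 and MCM9 (-0.16 and -0.16) and ORC6 (-0.15 and -0.15), none of which passed.

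Of the 18 genes of origin firing and CMG assembly (median -0.24), 9 fell and 0 rose under the block. GINS3, a GINS subunit (-0.57 without and -0.57 with the block, adjusted p = 0.153 and 0.000467), and CDC7, the kinase that acts on MCM4 (-0.51 without and -0.50 with the block, adjusted p = 0.390 and 0.000195), had the largest estimates in edgeR. Without the block GINS3 was at -0.062 (siACAT1-1) and -0.80 (siACAT1-2) in UM-UC-3 cells, and at -0.47 and -0.97 in T24 cells. CDC7 was at -0.36 and -0.35, and at -0.74 and -0.61. The list medians were -0.061 and -0.29 for UM-UC-3, and -0.40 and -0.25 for T24. GINS2 (-0.43), GINS4 (-0.41) and CDC45 (-0.37) fell as well (adjusted p = 0.0132, 0.0152 and 0.00801 in edgeR with the block). CDC7 was lower than siNC in 12 of 12 differences between libraries of the same number (1.91% of all genes were), and GINS3 in 11.

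Of the 11 genes of fork protection and licensing turnover (median -0.18), 5 fell and 0 rose under the block. They were CCNF, an F-box cyclin (-0.52, adjusted p = 0.00444), the checkpoint mediator CLSPN (-0.45, 0.00270), FBXO5, an inhibitor of the anaphase-promoting complex (-0.41, 0.00891), and the partners TIMELESS (-0.37, 0.000933) and TIPIN (-0.25, 0.0194), all from edgeR with the block. Without the block their adjusted p ranged from 0.352 to 0.730.

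Genes that act after licensing were read in the same way. Of 25 genes of DNA synthesis and nucleotide supply, 15 fell and 0 rose under the block (median -0.30), and of 20 mitosis genes 19 fell and 0 rose (median -0.45). The 10 licensing genes had siACAT1-1 medians under the block of -0.34 for UM-UC-3 and -0.48 for T24, whereas the mitosis genes had -0.089 (0 of 20 called, beside 1.1% of all genes called lower) and -0.92 (20 of 20 called, beside 7.31%). For siACAT1-2 the medians were closer, at -0.38 and -0.27 for the licensing genes, against -0.28 (1 of 20 called, beside 0.72%) and -0.60 (15 of 20 called, beside 3.93%) for the mitosis genes. In the test of the difference between the lines (UM-UC-3 minus T24), 0 of 20 mitosis genes and 0 of 10 licensing genes passed. With the block only 0.104% of all genes were called there. The mitosis genes had a median difference of 0.55 without and 0.59 with the block, and 0 of 20 were fitted below 0 without it. For the licensing genes these medians were 0.068 and 0.018.

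Across libraries the lists differed in how far they followed the replicate numbers. In UM-UC-3 cells the mean level of the 10 genes spanned 1.37 on the log2 scale between numbers, that of origin firing genes 0.96, of DNA synthesis genes 0.86, of fork protection genes 0.73, of mitosis genes 0.56 and of origin recognition genes 0.30. In T24 cells the order was another, with 1.13 for mitosis genes, 0.71 for the 10 genes, 0.68 for fork protection, 0.60 for origin firing, 0.47 for DNA synthesis and 0.33 for origin recognition. In the T24 siACAT1-2 library with number 2, mitosis genes lay at -1.25 relative to the mean of the line and the 10 genes at -0.30. These are descriptions of list means, with no test.

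**Figure D5:**
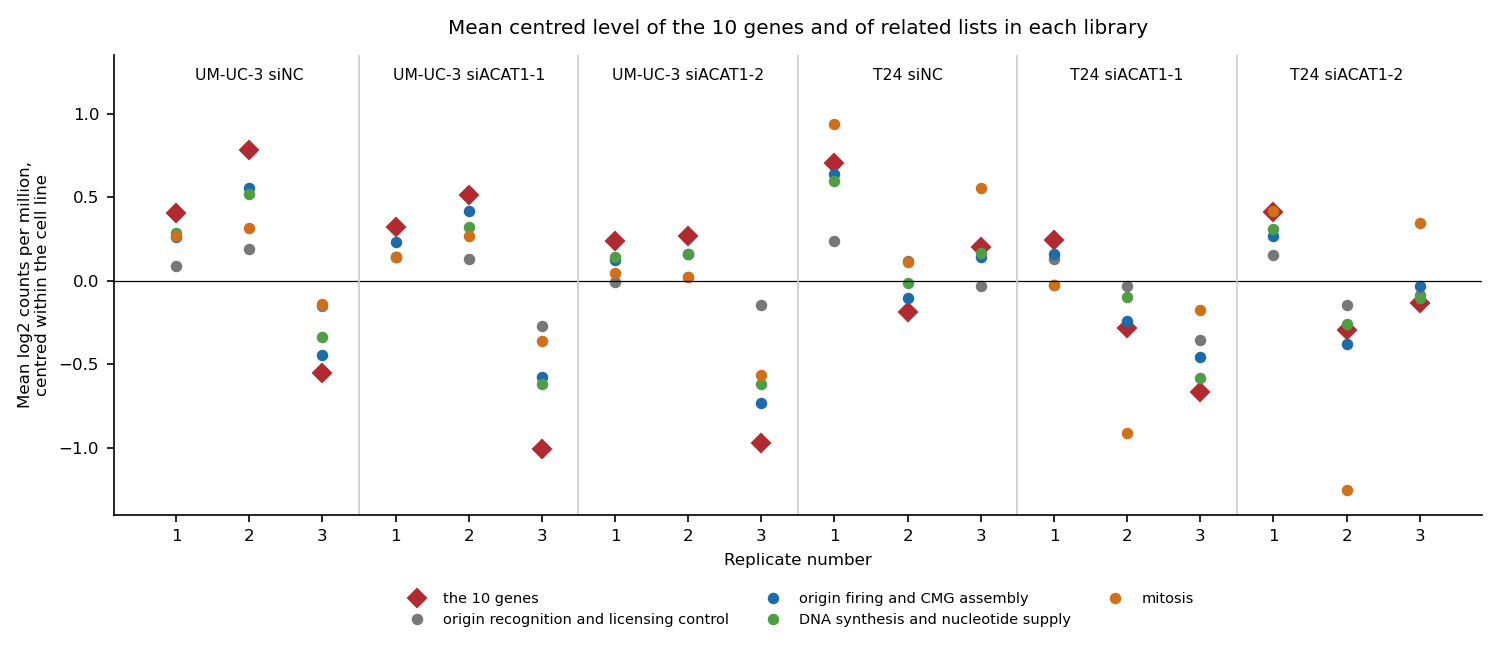
Mean log2 CPM of each list, centred on the mean of the cell line (vertical axis), in each of the 18 libraries by group and replicate number (horizontal axis). Within UM-UC-3 cells the 10 genes (diamonds) are lowest in the libraries with number 3, at -0.55, -1.01 and -0.97, and within T24 cells in siACAT1-1 library 3, at -0.67, while mitosis genes are lowest in the T24 siACAT1 libraries with number 2, at -0.91 and -1.25.

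Genes with the most similar pattern were sought by the root mean square distance over the 18 libraries between log2 CPM, centred within the cell line, and the mean of the 10 genes, which holds each of them. MCM6 lay nearest, at 0.098, followed at some distance by MCM3 (0.18), MCM7 (0.22), MCM2 (0.25), MCM4 (0.26), CDC6 (0.27), MCM10 (0.33), CDT1 (0.36), MCM8 (0.36) and MCM5 (0.37). The median distance of all genes was 0.65, and that of a flat profile was 0.53. Among the genes tested, MCM10, CDT1, MCM8 and MCM5 ranked only 293, 538, 566 and 573 by this distance. Outside the 10 genes, the 6 nearest were TYMSOS (0.14), POLD3 (0.14), RFC3 (0.14), CHAF1B (0.15), RRM2 (0.15) and THRIL (0.15). POLD3 is a subunit of DNA polymerase delta, RFC3 of the clamp loader, CHAF1B of the chromatin assembly factor and RRM2 of ribonucleotide reductase, while TYMSOS and THRIL are long noncoding RNAs. Their fitted mean changes after the knockdown, with the block, ranged from -0.49 (CHAF1B) to -0.21 (POLD3). They are given without a test, since the same libraries chose these genes.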

How the data were processed

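RNA-seq libraries (stranded mRNA kit with molecular identifiers, Illumina NovaSeq) were analysed from 18 samples in 6 groups. Per the labels and methods, the authors filtered reads with Trimmomatic 0.36, mapped them with STAR 2.5.3 to GRCh38 and counted reads on gene exons with featureCounts (Subread 1.5.1), and they deposited these counts without normalization for 39496 genes. Annotation release, strand setting and collapse of molecular identifiers are not given in the sources used here. The authors deposited RPKM values as well, which match counts scaled to gene length and column total. Every replicate pair of a group differed by more than sampling noise (chi-square per degree of freedom 12.5 to 185), so none was merged and each library counted as 1 replicate. This does not show that libraries of different groups are independent, since those of the same number in a cell line deviated together.

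The test was the quasi-likelihood test of edgeR 4.0.16 under R 4.3.3, with TMM scaling, filterByExpr by group and a coefficient for each group of the 18 libraries, and with Benjamini-Hochberg adjustment over the 20144 genes tested and calls at an adjusted p under 0.05. Contrasts took each siRNA against siNC of its line, the mean of these 4, the differences between lines and between siRNAs, and siNC between lines. Intervals are 95%. The numbers were checked for pairing. Across genes, which are not replicates, deviations from group means correlated at 0.115 to 0.576 in the 9 same-number pairs of UM-UC-3 cells and at 0.356 to 0.686 in the 9 of T24 cells, against -0.545 to 0.269 and -0.567 to 0.210 for other pairs. The pairing comes from these values, since no source states it, and a block for number within line was fitted beside the main model. DESeq2 1.42.0, limma 3.58.1 on log2(RPKM + 0.1), other size factors, no filter, each line alone and left-out libraries were alternatives. On simulated counts the edgeR steps were tested with genes of known fold change. The simulation built in an effect of the replicate number, drawn separately for each gene, so it is no check on the choice of the block.

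Named genes were the 10 genes, ACAT1, up to 5 genes per related list with the largest mean change and the 6 genes nearest in profile. The 10 genes and all lists were chosen with earlier results of these data known, and MCM2, MCM4, MCM6 and MCM7 are among the genes that the authors also measured by qRT-PCR after the knockdown, so counts over them are no independent evidence. The 6 nearest genes were chosen on these libraries.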

Additional observations from a re-analysis of the deposited data

How the results depend on the processing

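The replicate number within the cell line decided most calls. Without the block 45 genes were called in the mean of the 4 comparisons, and with it 2500 (2505 with DESeq2 size factors). The 10 licensing genes had 0 calls without the block and, with it under either scaling, 8 in the mean, 7 for siACAT1-1 and 2 for siACAT1-2 in T24 cells, and 2 between the siRNAs. It changed no other count of these genes. Without the block the count stayed at 0 in every setting for the mean and the 4 comparisons, while genes called in all were 383 without a filter, 309 with DESeq2, 19 with limma, 2 in each line alone, 8 without the UM-UC-3 libraries of number 3 and 436 without the T24 libraries of number 2. Between the siNC groups, 0 licensing genes were called without those UM-UC-3 libraries (3638 of 20485 genes higher and 4117 lower). Without those T24 libraries 2 were called (4342 of 20458 genes higher and 4632 lower). With the block, DESeq2 called 3 and 1 licensing genes for siACAT1-1 and siACAT1-2 of UM-UC-3 and 9 in the mean (1353 of 15758 genes called lower). The block with limma on RPKM gave 5 in the mean (982 of 20144 genes called lower). In T24 cells it gave 4 and 0 for siACAT1-1 and siACAT1-2 (1393 and 674 genes lower). Between the siRNAs it gave 1 (2329 genes higher and 1597 lower). With each line fitted alone and the block, UM-UC-3 gave 4 and 2 for its siRNAs (437 and 258 of 18314 genes called lower). It gave 4 for its mean (407 genes in all) and 1 between siRNAs (1070 genes higher and 1268 lower). T24 gave 1 for siACAT1-2 (606 of 18116 genes lower) and 3 for its mean (1472 genes in all). These fits give no difference between lines. With the block and without the UM-UC-3 libraries of number 3, 4 were called in the mean (1179 genes in all). Without the T24 libraries of number 2, 3 were called for siACAT1-1 of UM-UC-3 (373 of 20458 genes lower) and 4 between siRNAs (2457 genes higher and 2293 lower). The T24 siACAT1-2 median was then -0.38 with and without the block. The mean log2 fold change of CDC6 turned to 0.094 in UM-UC-3 alone with the block, and without the block and 1 library it ranged from -0.39 to 0.037, above 0 without UM-UC-3 siNC library 2. The cause of these changes was not tested.

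With 1 library left out (18 fits each, 2 or 3 libraries per group), genes called in the mean ranged from 6 to 143 without and from 1191 to 3162 with the block. With the block the counts of licensing genes ranged from 4 to 9 in the mean, 0 to 9 and 0 to 2 for siACAT1-1 and siACAT1-2 in T24 cells, 0 to 3 for siACAT1-1 in UM-UC-3 cells and 1 to 4 between siRNAs, and without it from 0 to 1 between the siNC groups. With all libraries kept, 20.6% of all genes were called between siRNAs with the block, and 44.3% between the siNC groups without it. Medians without the block ranged from -0.59 to 0.058 and from -0.66 to -0.0030 for the UM-UC-3 siRNAs, from -0.81 (without T24 siACAT1-1 library 1) to -0.17 (without T24 siNC library 1) for T24 siACAT1-1 and from -0.46 to -0.062 for T24 siACAT1-2, and with the block from -0.65 to -0.31 and from -0.45 to -0.18 for these last comparisons. Mean changes of single genes without the block moved as well, from -0.66 to -0.092 for MCM10, -0.60 to -0.16 for MCM4, -0.49 to -0.11 for MCM5, -0.50 to -0.14 for MCM3, -0.49 to -0.21 for MCM2, -0.52 to -0.20 for MCM6, -0.43 to -0.17 for MCM8, -0.40 to -0.21 for MCM7 and -0.44 to -0.23 for CDT1, none of them above 0.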
